A study of Mus musculus with 8 samples.

Results

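A group of 10 genes, made up of negative feedback regulators of ERK signalling and of the PEA3 group of ETS transcription factors, was followed in the ventricular-subventricular zone (V-SVZ), the stem cell niche along the lateral ventricles of the adult brain. Mice without *Lrig1* (KO) were compared with wild-type mice (WT). The genes were the Sprouty genes *Spry1*, *Spry2* and *Spry4*, the Spred genes *Spred1* and *Spred2*, the phosphatase genes *Dusp4* and *Dusp6*, and the factors *Etv1*, *Etv4* and *Etv5*. Their identifiers in the gene count table are ENSMUSG00000037211.13, ENSMUSG00000022114.6, ENSMUSG00000024427.8, ENSMUSG00000027351.15, ENSMUSG00000045671.18, ENSMUSG00000031530.7, ENSMUSG00000019960.9, ENSMUSG00000004151.18, ENSMUSG00000017724.15 and ENSMUSG00000013089.16, in the same order. They were taken by name, and these 10 of 54307 genes all passed the filter on low counts that left 17669 genes for testing. The polyA RNA came from the periventricular area of 1 hemisphere each of 4 mice per genotype, 8 weeks old. WT replicates 1, 3 and 4 and KO replicates 2 and 4 were female, and WT replicate 2 and KO replicates 1 and 3 were male. All mice were on a 129 strain background, named 129-Elite in the study's methods. KO mice carried CreERT2 in exon 1 of both *Lrig1* alleles and lacked the gene constitutively and in every cell type, and WT mice were littermates with both alleles intact.

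ERK is the last kinase of the RAS, RAF and MEK cascade that EGFR, FGF receptors and other receptor tyrosine kinases switch on. Active ERK raises the transcription of its own inhibitors. Sprouty and Spred proteins act upstream at the level of RAS and RAF, and DUSP4 and DUSP6 remove the activating phosphates from ERK itself, DUSP4 in the nucleus and DUSP6 in the cytoplasm. The PEA3 factors ETV1, ETV4 and ETV5 are transcription factors whose genes are induced by FGF and ERK signalling in many tissues, so the RNA of all these genes is often read as an output of the pathway. LRIG1 is a membrane protein known as an inhibitor of EGFR, and the study compared transcriptomes to find pathways that change without it.

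The gene counts summed to between 47887437 and 74482334 per mouse, and the members had between 201 and 18333 counts each in every mouse. *Lrig1*, the targeted gene, was at 13.5 to 45.6 CPM (counts scaled to library size) in WT and at 1.17 to 4.15 in KO, with no overlap, and its log2 fold change of -3.80 had an adjusted p of 0.286 in edgeR. Markers of neural stem cells and astrocytes, neuroblasts and ependymal cells of this niche were present, with *Foxj1*, a master factor of motile cilia, at 13.3 ± 2.41 CPM (SD, n = 4) in WT, and none of the markers was at or under 3 counts in every mouse. Markers of striatal spiny neurons and oligodendrocytes were present too, at far higher summed CPM. The striatal list summed to 2880 to 8970 CPM in WT mice and 4490 to 7270 in KO mice. The oligodendrocyte list summed to 7180 to 7820 and 6060 to 7670. The neuroblast list summed to 156 to 225 and 160 to 231, and the ependymal list to 30.5 to 47.6 and 25.5 to 57.9. Over all 11 cell marker lists 0 genes passed in edgeR, and the median log2 fold changes of the lists ran from -0.845 (cortical) to 0.112 (ependymal). At an unadjusted p under 0.05 were 3 of the 85 cell markers tested (3.53%, against 1.88% of all genes). These were *Gfap* of astrocytes and stem cells at 73.5% of WT, *Cspg4* of oligodendrocyte precursors at 72.0% and *Csf1r* of microglia at 78.3%, each with an adjusted p of 1.0 in edgeR. Their lists as a whole moved less, with median log2 fold changes of -0.085, -0.083 and -0.16. In these lists 2 of 10, 1 of 5 and 1 of 7 markers were higher in KO. Markers of the neighbouring cortex varied most between mice. The CPM of 10 markers of cortical excitatory neurons summed to 390, 2060, 104 and 283 in WT replicates 1 to 4 and to 524, 98.8, 963 and 71.7 in KO replicates 1 to 4. A cortical score, the mean log2 CPM of 7 of these markers, was 3.98 to 6.07 in the 3 male mice and 2.02 to 3.73 in the 5 female mice, so sex and cortical tissue cannot be told apart in these mice. WT replicate 2, the only WT male, had the highest score. Of the 10 cortical markers, 9 were lower in KO on average, against 50.3% of all genes tested. All 10 striatal markers and 7 of 8 oligodendrocyte markers were lower too, while 6 of 9 neuroblast and 6 of 7 endothelial markers were higher. In summed cortical CPM, KO replicates 1 and 3 were above WT replicates 1, 3 and 4.

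Levels of different genes were compared in TPM, a scale of transcript abundance that allows for transcript length. *Spred1* was highest, with a mean of 59.0 ± 4.94 TPM (SD, n = 8), followed by *Spry2* with 41.1 ± 4.35, *Etv5* with 29.3 ± 8.18, *Spred2* with 23.7 ± 3.67, *Dusp6* with 17.1 ± 4.96 and *Etv1* with 17.1 ± 3.91. The other 4 genes were far lower, *Etv4* at 4.88 ± 1.45 TPM, *Spry1* at 3.93 ± 0.630, *Dusp4* at 2.76 ± 0.951 and *Spry4* at 2.34 ± 0.563. The highest mean was 25.2 times the lowest. The lowest *Spred1* value of any mouse, 48.5 TPM, was above the highest *Spry2* value, 46.9 TPM. The lowest *Etv1* value, 11.6 TPM, was above the highest *Etv4* value, 7.31 TPM. The values of all other neighbours in this order overlapped between mice, and *Dusp6* was above *Etv1* in only 4 of 8 mice. Within each family 1 or 2 genes thus carried most of the RNA, *Spry2* among the Sproutys, *Spred1* among the Spreds, *Dusp6* among the phosphatases, and *Etv5* and *Etv1* among the PEA3 factors.

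**Figure D1:**
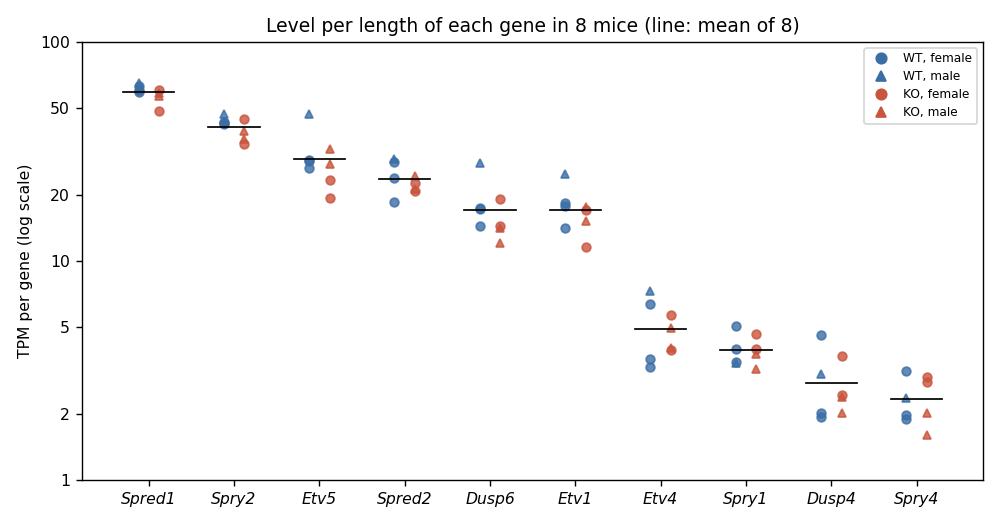
Level per length of each gene in each of 8 mice, in TPM on a log axis, ordered by the mean of 8 mice (black line). Circles are female and triangles male mice, WT in blue and KO in red, and the 6 genes on the left have means from 59.0 down to 17.1 TPM while the 4 on the right lie between 4.88 and 2.34 TPM.

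Between genotypes, 0 of the 10 genes passed an adjusted p under 0.1 in edgeR's quasi-likelihood test (Benjamini-Hochberg over 17669 genes), where 0.00566% of all genes tested did. All 10 had an adjusted p of 1.0 in that test. *Lrig1* itself, at 7.19% of WT and without overlap, did not pass there either (adjusted p = 0.286). A gene that did not pass in this test can therefore still differ between genotypes. An unadjusted p under 0.05 was reached by 0 of the 10, against 1.88% of all genes tested, and WT and KO mice overlapped for each of the 10, while 1.53% of all genes had no overlap. The log2 fold change was below 0, or lower in KO, for 8 of the 10 genes and for 50.3% of all genes tested. The median log2 fold change was -0.095 over the 10 genes and -0.000942 over all genes tested. In DESeq2 without covariates 0 of the 10 passed as well, and 0.0619% of all genes did. In bulk tissue, fewer cells that express a gene and less RNA per cell cannot be told apart.

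**Figure D2:**
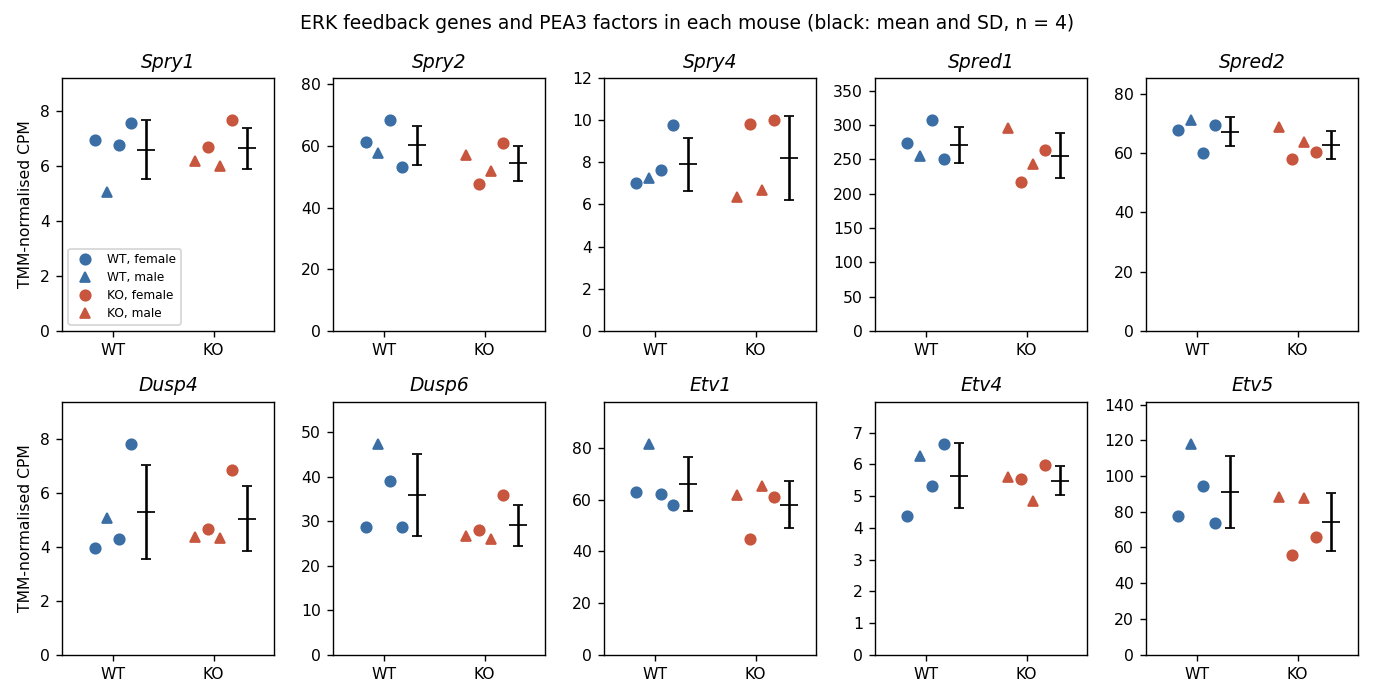
TMM-normalised CPM of each gene in each mouse, with 1 panel per gene and axes from 0. Circles are females and triangles males, black marks give the mean and SD of 4 mice, and in every panel the WT mice (blue) and KO mice (red) overlap, with the male WT mouse highest for *Dusp6* (47.4 CPM), *Etv1* (81.6 CPM) and *Etv5* (118 CPM).

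Of the Sproutys, *Spry2*, the most abundant, had 61.4, 57.7, 68.4 and 53.2 CPM in WT replicates 1 to 4 and 57.1, 47.8, 52.0 and 60.9 CPM in KO replicates 1 to 4. Mice of the 2 genotypes were interleaved, and only KO replicates 2 and 3 fell below the lowest WT mouse. For *Spry2* the log2 fold change was -0.15 (standard error 0.10), with a 95% interval from -0.38 to 0.09. *Spry1* averaged 6.58 ± 1.07 CPM over 4 WT mice (SD) and 6.64 ± 0.742 over 4 KO mice, with a log2 fold change of 0.01 (95% interval -0.32 to 0.35). *Spry4* had 7.03, 7.25, 7.63 and 9.75 CPM in WT and 6.33, 9.82, 6.68 and 10 CPM in KO. Its KO values fell into a low pair, both male and below all WT mice, and a high pair, both female and above all WT mice. In females *Spry4* was at 8.14 CPM in WT and 9.91 CPM in KO, and in males at 7.25 and 6.50 CPM, so KO was higher in females and lower in males. WT and KO mice were apart within each sex in opposite directions for *Spry4* alone of the 10 genes and for 6.63% of all genes tested. The difference between sexes was not tested, with 1 WT male.

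Of the Spreds, *Spred1*, which links RAS to the GTPase activator neurofibromin, averaged 271 ± 25.8 CPM over 4 WT mice (SD) and 255 ± 32.8 over 4 KO mice, with a log2 fold change of -0.09 (95% interval -0.34 to 0.16). *Spred2* averaged 67.1 ± 4.88 CPM in WT against 62.7 ± 4.60 in KO, with a log2 fold change of -0.10 (95% interval -0.28 to 0.08). In terms of fold, the interval of *Spred2* ran from 0.83 to 1.06 and was the tightest of the 10 genes.

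Of the phosphatases, *Dusp6* had the most negative log2 fold change of the 10 genes, and its size depended on which mice were used. Its values were 28.6, 47.4, 39.1 and 28.6 CPM in WT and 26.6, 28, 26.0 and 35.9 CPM in KO. A pair of WT mice were at the level of the KO mice, and WT replicate 2 stood highest. For *Dusp6* the log2 fold change was -0.30 (standard error 0.18, 95% interval -0.72 to 0.11, unadjusted p = 0.134 and adjusted p = 1.0, edgeR). It was -0.31 with sex as a covariate, and with each mouse left out it ran from -0.42 without KO replicate 4 to -0.14 without WT replicate 2. In females alone, with the 3 males left out, it was -0.00025, and WT and KO had 32.1 and 32.0 CPM on average. *Dusp4* ranged from 3.94 to 7.81 CPM in WT and from 4.31 to 6.83 CPM in KO, with a median near the lower end in both. WT replicate 4 and KO replicate 4 were the highest mice of their groups. The *Dusp4* log2 fold change was -0.07 (95% interval -0.62 to 0.49), the widest interval of the 10 genes, and 0.19 without WT replicate 4.

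Among the PEA3 factors, *Etv5* had 77.9, 118, 94.5 and 73.5 CPM in WT and 88.0, 55.9, 87.6 and 65.8 CPM in KO. The groups overlapped when all mice were pooled, and the 3 males were above all females but WT replicate 3. Within each sex they did not overlap. Females had 77.9, 94.5 and 73.5 CPM in WT and 55.9 and 65.8 CPM in KO, and the male WT mouse had 118 CPM against 88.0 and 87.6 CPM in KO. The KO mean was 74.2% of the WT mean in females and 74.4% in males. Of the 10 genes, *Etv5* alone was lower in KO without overlap in both sexes, as were 4.83% of all genes tested, while 0 of the 10 and 3.96% of all genes were higher in KO without overlap in both. Over all mice *Etv5* had a log2 fold change of -0.29 in edgeR (standard error 0.19, 95% interval -0.73 to 0.14, adjusted p = 1.0), which was -0.14 without WT replicate 2 and -0.18 without KO replicate 2.

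With sex as a covariate the log2 fold change of *Etv5* was -0.43 in edgeR (unadjusted p = 0.0020, adjusted p = 0.555) and -0.43 in DESeq2 (standard error 0.12, adjusted p = 0.042, Benjamini-Hochberg). That edgeR fit called 0 of the 10 genes and 0.0113% of all genes. *Etv5* was the 1 of the 10 genes called by DESeq2 with sex, where 1.13% of all genes were called and 0.687% were called lower. DESeq2 with transcript lengths and sex also called *Etv5* alone (adjusted p = 0.0661), with 1.15% of all genes called and 0.681% lower. In simulated data for this design, DESeq2 with sex called far more unchanged genes than edgeR did and more than its threshold allows for. The simulated data held no effect of sex or of cortical tissue, and edgeR was fitted to them without sex. Package and covariate therefore changed together, and the simulation cannot tell which of them made the extra calls. The study lists *Etv5* among its changed genes from these same mice, so neither call is independent evidence. Left out in turn from DESeq2 with sex, 4 of the 8 mice removed the call. In DESeq2 the adjusted p of *Etv5* was 0.112 without WT replicate 1, 0.504 without WT replicate 2, 0.391 without KO replicate 2 and 0.176 without KO replicate 3. The log2 fold change remained between -0.50 and -0.36 in these 8 fits. With the cortical score as a covariate in edgeR it was -0.23 (adjusted p = 1.0), and with sex and the cortical score together, a fit chosen after seeing the data, -0.60 (adjusted p = 0.323).

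*Etv1*, also known as ER81 and a marker of deep-layer projection neurons in the cortex, had 63.1, 81.6, 62.2 and 57.8 CPM in WT and 61.9, 44.7, 65.1 and 60.9 CPM in KO. Of the 8 mice, 6 lay between 57.8 and 65.1 CPM, with WT replicate 2 above and KO replicate 2 below them. For *Etv1* the log2 fold change was -0.19 (standard error 0.14, 95% interval -0.51 to 0.14), and it was -0.07 without WT replicate 2 and -0.08 without KO replicate 2. With sex as a covariate it was -0.26 (unadjusted p = 0.0324, adjusted p = 0.671, edgeR), and *Etv1* and *Etv5* were the 2 of the 10 genes with an unadjusted p under 0.05 in that fit, against 6.95% of all genes tested. *Etv4*, the least abundant PEA3 factor, averaged 5.65 ± 1.02 CPM over 4 WT mice (SD) and 5.49 ± 0.467 over 4 KO mice, with a log2 fold change of -0.04 (95% interval -0.38 to 0.30).

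**Figure D3:**
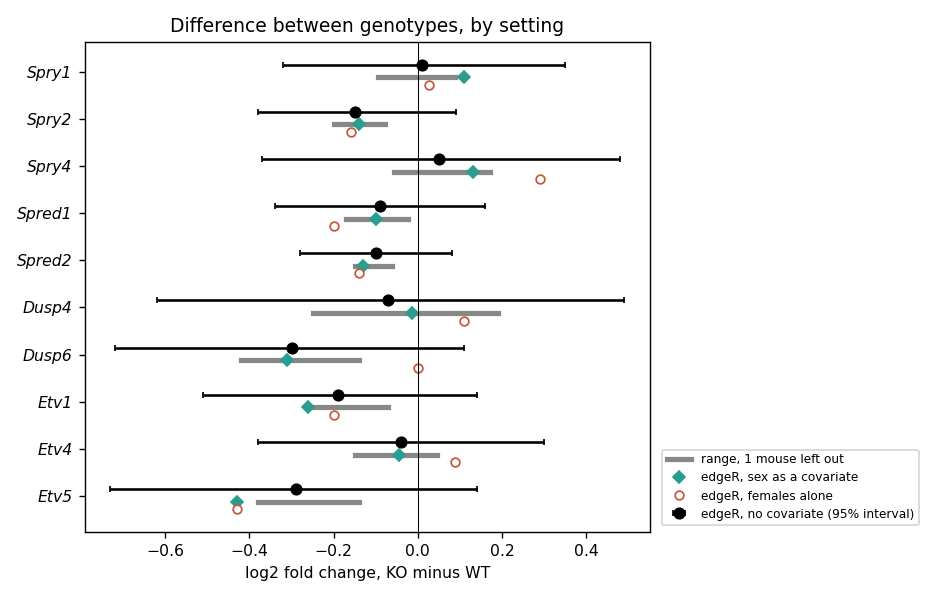
Log2 fold change of each gene, KO minus WT, with the 95% interval from edgeR without covariates (black), the range over the 8 fits that each left out 1 mouse (grey bar), the fit with sex as a covariate (green diamond) and females alone (open circle). All 10 intervals include 0, *Dusp6* moves from -0.30 to -0.00025 in females alone, and *Etv5* is at -0.43 both with sex as a covariate and in females alone.

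Salmon also gave a level for each transcript, which shows how the TPM of a gene was divided among its start sites and isoforms. *Spry2*, *Spry4* and *Dusp4* had 1 transcript each. The leading transcript held 99.6% of the TPM of *Spred1* and 95.4% of that of *Dusp6*. Spry1-203 held 82.2% of *Spry1*, with values from 67.3% to 100% between mice. *Spred2* was divided between Spred2-202 with 61.6% and Spred2-201 with 38.4%. *Etv4* was divided among short and long models, with 36.6% in the leading coding transcript Etv4-201, 27.0% in Etv4-202, and 17.0% in Etv4-211, a noncoding model of 400 bases. The share of the leading transcript did not pass for any of the 7 genes with more than 1 transcript above 0 (2-sided exact permutation tests over 4 and 4 mice, unadjusted p from 0.429 to 1.0, where 0.0286 is the smallest p possible). For *Etv5* it was 99.5 ± 0.384% (SD, n = 4) in WT and 98.4 ± 1.87% in KO.

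*Etv1* had 13 transcripts, and a pair with different start sites held most of its TPM. Etv1-201 held 51.2% and Etv1-202, which starts further downstream, 34.8%. Etv1-201 was at 7.60, 14.2, 7.29 and 8.75 TPM in WT replicates 1 to 4 and at 7.20, 6.37, 10.1 and 8.41 TPM in KO replicates 1 to 4. The highest values were those of WT replicate 2 and KO replicate 3, both male and the mice with the highest cortical scores, 6.07 and 4.96. Etv1-202 stayed between 5.19 and 7.37 TPM in WT and between 4.16 and 6.38 TPM in KO, and the same pair of mice did not stand out. The ratio of Etv1-201 to Etv1-202 was 2.04 in WT replicate 2, 1.86 in KO replicate 3 and between 1.03 and 1.53 in the other 6 mice. It was 1.2 in KO replicate 1, the remaining male, which had the next highest cortical score, 3.98. This pair of transcripts was singled out after their values were seen, and the parts of cortical tissue and of sex in the ratio were not tested.

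**Figure D4:**
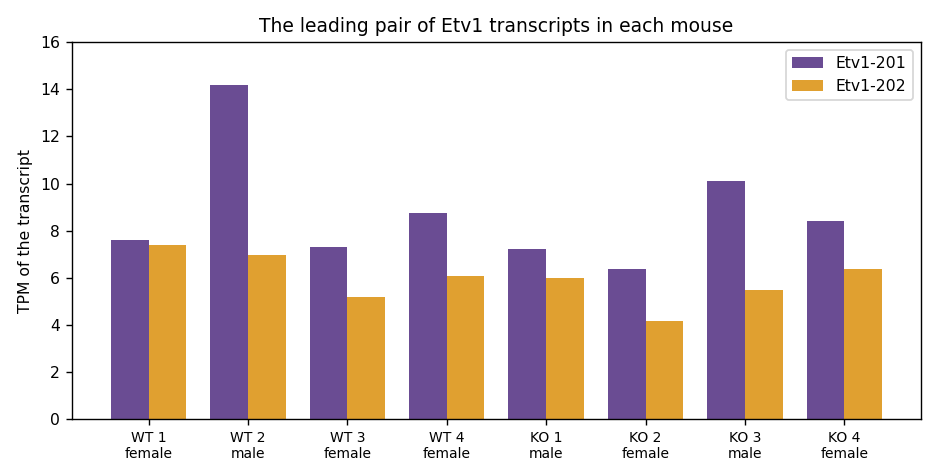
TPM of Etv1-201 (purple) and Etv1-202 (orange) in each mouse, as bars from 0. Etv1-201 reaches 14.2 TPM in WT replicate 2 and 10.1 TPM in KO replicate 3 and is at most 8.75 TPM in the other mice, whereas Etv1-202 stays between 4.16 and 7.37 TPM.

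The promoters of the 3 genes with the most negative log2 fold changes, *Dusp6*, *Etv5* and *Etv1*, are shown for the bases that lead up to their leading transcripts, from RefSeq on GRCm38.p6, which is an older build than that of the counts. RefSeq windows matched 7 of the 10 genes by symbol. Capitals mark the hexamer AGGAAG on either strand, the site for which PEA3 was named.
Dusp6 promoter, chr10:99262981-99263230, plus strand: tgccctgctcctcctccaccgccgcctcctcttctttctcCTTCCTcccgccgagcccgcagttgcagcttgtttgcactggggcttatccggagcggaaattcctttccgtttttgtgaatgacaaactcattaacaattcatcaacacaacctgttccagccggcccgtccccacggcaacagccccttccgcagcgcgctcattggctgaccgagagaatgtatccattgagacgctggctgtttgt
Etv5 promoter, chr16:22439720-22439820, minus strand: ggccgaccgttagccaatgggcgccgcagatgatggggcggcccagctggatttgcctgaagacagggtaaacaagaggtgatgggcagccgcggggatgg
Etv1 promoter, chr12:38779832-38780081, plus strand: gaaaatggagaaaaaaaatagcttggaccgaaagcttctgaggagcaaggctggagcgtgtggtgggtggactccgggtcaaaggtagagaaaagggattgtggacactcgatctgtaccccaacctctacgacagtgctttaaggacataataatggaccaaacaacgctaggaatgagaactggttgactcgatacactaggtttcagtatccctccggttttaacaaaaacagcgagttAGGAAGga
The hexamer AGGAAG was found 1 time in the *Dusp6* window of 250 bases, on the opposite strand, 1 time in the *Etv1* window of 250 bases, beginning 8 bases before the end of that window, and 0 times in the *Etv5* window of 101 bases. Among all 32851 RefSeq windows of 250 bases before a start, 29.5% held it, so a match in such a window is frequent. The longer ETS site CCGGAAGT and the cyclic AMP response element TGACGTCA, searched on both strands, were in 2.88% and 1.55% of all windows and in none of these 3.

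The members were then compared with each other from mouse to mouse. Of the 45 pairs of members, 30 had a Pearson r above 0 over the 8 mice on log2 CPM, with a median r of 0.10, and 6 had an unadjusted exact permutation p under 0.05. None passed after adjustment over the 45 pairs. The share of all gene pairs with such a p was not computed. *Etv1* and *Etv5* had the highest r, 0.90 (exact permutation p = 0.00516, adjusted p = 0.147) with a rho of 0.79 (p = 0.0279, adjusted p = 0.419), and 0.52 without WT replicate 2 and KO replicate 2. *Spry2* and *Spred1* had an r of 0.87 (exact permutation p = 0.00652, adjusted p = 0.147) with a rho of 0.86 (p = 0.0107, adjusted p = 0.241), and 0.55 without WT replicate 3 and KO replicate 2. *Dusp4* and *Etv4* had an r of 0.80 (exact permutation p = 0.0179, adjusted p = 0.269) with a rho of 0.93 (p = 0.00223, adjusted p = 0.10), and 0.92 without WT replicate 4 and KO replicate 4. *Spry4* and *Dusp4* had an r of 0.74 (exact permutation p = 0.0326, adjusted p = 0.323) with a rho of 0.57 (p = 0.151, adjusted p = 0.673), and 0.87 without KO replicates 2 and 4. *Spry1* and *Spry4* were set against *Etv5* with r of -0.74 and -0.71 (exact permutation p = 0.0359 and 0.0474, adjusted p = 0.323 and 0.354), rho of -0.62 each (p = 0.115, adjusted p = 0.647), and r of -0.36 and -0.37 without the 2 mice farthest from the median. With values centred on each genotype the r of these 6 pairs were 0.88, 0.86, 0.80, 0.75, -0.81 and -0.77. With the effects of genotype and sex both taken out, which was added after seeing the data, they were 0.61, 0.88, 0.85, 0.83, -0.05 and -0.29. The negative r of *Spry1* and *Spry4* with *Etv5* were much closer to 0 once sex was taken out. The 3 males also had the highest cortical scores, so the parts of sex and cortical tissue cannot be told apart here. No correlation was computed within the 5 females or the 3 males.

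The make-up of the tissue was set against the same genes. Of 50 relations between the 10 members and the scores of 5 cell lists, 7 had an unadjusted exact permutation p under 0.05 and 0 passed after adjustment over the 50. The share of all genes with such a p against these scores was not computed. With the cortical score, r was -0.85 for *Spry1* (exact permutation p = 0.00759, adjusted p = 0.15), with a rho of -0.81 (p = 0.0218, adjusted p = 0.315), and -0.52 without WT replicate 2 and KO replicate 4. It was 0.70 for *Etv1* (exact permutation p = 0.0591, adjusted p = 0.314), with a rho of 0.69 (p = 0.0694, adjusted p = 0.315), and 0.55 without those mice. For *Etv5* r was 0.71 (exact permutation p = 0.047, adjusted p = 0.314), with a rho of 0.57 (p = 0.151, adjusted p = 0.568), and 0.33 without those mice. *Spry4* had an r of -0.62 with the cortical score (exact permutation p = 0.104, adjusted p = 0.371), with a rho of -0.76 (p = 0.0368, adjusted p = 0.315), and -0.60 without those mice. With the astrocyte and stem cell score *Spry4* had an r of 0.81 (exact permutation p = 0.014, adjusted p = 0.175), with a rho of 0.74 (p = 0.0458, adjusted p = 0.315), and 0.72 without WT replicate 4 and KO replicate 1. With the neuroblast score *Etv1* had an r of -0.77 (exact permutation p = 0.00223, adjusted p = 0.112), with a rho of -0.90 (p = 0.00456, adjusted p = 0.228), and -0.65 without WT replicate 2 and KO replicate 3. *Spred2* had an r of 0.73 with the cortical score (exact permutation p = 0.0445, adjusted p = 0.314), with a rho of 0.69 (p = 0.0694, adjusted p = 0.315), and 0.55 without WT replicate 2 and KO replicate 4. With the oligodendrocyte score *Spred1* had an r of 0.82 (exact permutation p = 0.00898, adjusted p = 0.15), with a rho of 0.79 (p = 0.0279, adjusted p = 0.315), and 0.58 without WT replicate 4 and KO replicate 2. *Spry4* had an r of -0.71 with that score (exact permutation p = 0.0277, adjusted p = 0.277), with a rho of -0.71 (p = 0.0576, adjusted p = 0.315), and -0.60 without the same mice. With the striatal spiny neuron score no r had an unadjusted p under 0.05. *Spred1* had an r of 0.67 with it (exact permutation p = 0.0692, adjusted p = 0.314) and a rho of 0.83 (p = 0.0154, adjusted p = 0.315). *Spry1* had an r of 0.67 (p = 0.0689, adjusted p = 0.314) and a rho of 0.50 (p = 0.216, adjusted p = 0.568). Without WT replicates 2 and 3 these r were 0.92 for *Spred1* and 0.21 for *Spry1*. The 3 males hold the 3 highest cortical scores. With the effects of genotype and sex taken out, r with the cortical score was -0.24 for *Spry1*, -0.11 for *Etv1*, -0.73 for *Etv5*, 0.31 for *Spry4* and 0.30 for *Spred2*, so the sign turned for *Etv1*, *Etv5* and *Spry4*. It was 0.87 for *Spry4* with the astrocyte and stem cell score, -0.73 for *Etv1* with the neuroblast score, and 0.83 for *Spred1* and -0.68 for *Spry4* with the oligodendrocyte score. With the striatal score it was 0.90 for *Spred1* and 0.56 for *Spry1*.

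**Figure D5:**
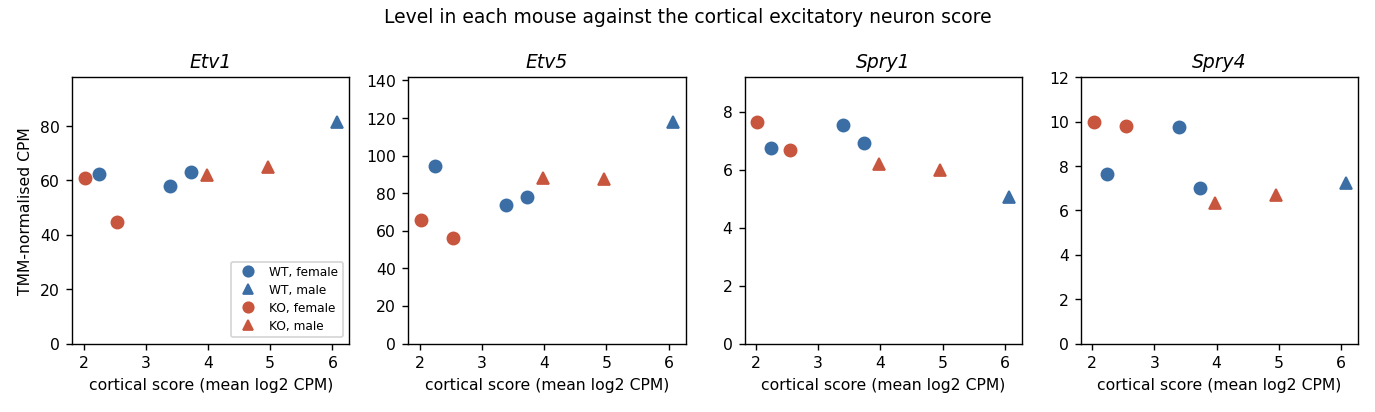
TMM-normalised CPM of *Etv1*, *Etv5*, *Spry1* and *Spry4* in each mouse against its cortical score, the mean log2 CPM of 7 cortical excitatory neuron markers. Triangles (males) all lie at scores of 3.98 or more and circles (females) at 3.73 or less, WT in blue and KO in red, and WT replicate 2 at 6.07 has the highest *Etv1* and *Etv5* and the lowest *Spry1*, 5.06 CPM.

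Other genes of the pathway were taken as lists. None of them passed the adjusted threshold in edgeR, and in none did WT and KO mice stay apart. Of 8 other feedback inhibitors and phosphatases, 7 were tested, with 4 lower, 3 higher and a median log2 fold change of -0.05. *Dusp7*, a cytoplasmic ERK phosphatase and the highest of them in CPM, averaged 55.1 ± 16.2 CPM over 4 WT mice (SD) and 43.6 ± 8.71 over 4 KO mice. Its log2 fold change was -0.34 (edgeR, standard error 0.21, adjusted p = 1.0). Of 6 receptor tyrosine kinases, 5 were lower and 1 higher, with a median of -0.12. *Ntrk2*, the BDNF receptor and the highest of the 6 in CPM, was at 744 ± 101 CPM in WT and 744 ± 53.4 in KO. CPM does not allow for transcript length, so these are not rankings of abundance.

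The 20 adaptors and kinases of the cascade had a median log2 fold change of 0.01, with 8 lower and 12 higher. *Araf*, a RAF kinase, was the 1 of the 53 genes tested in these lists with an unadjusted p under 0.05, a share of 1.89% against 1.88% of all genes, at 109 ± 7.44 CPM in WT and 130.0 ± 16.9 in KO (log2 fold change 0.25, standard error 0.10, unadjusted p = 0.0331, adjusted p = 1.0, edgeR). Of 10 other ETS factors, 6 were lower and 4 higher, with a median of -0.03, and *Ets2*, the highest in CPM, had 113 ± 21.8 CPM in WT and 109 ± 6.45 in KO. Of 11 other ERK target genes, 10 were tested, with 3 lower, 7 higher and a median of 0.04. *Epha4*, an ephrin receptor and the highest of these targets in CPM, averaged 240.0 ± 20.3 CPM in WT against 211 ± 37.7 in KO, and edgeR gave a log2 fold change of -0.19 with an adjusted p of 1.0. The medians of these lists lay on either side of 0.

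The mean of the 10 genes, each standardised over the 8 mice, was highest in WT replicate 2 at 0.48 and lowest in KO replicate 2 at -0.78, in units of SD. Of 14432 other genes with a mean of at least 1 CPM, *Hif1an*, *Rps19bp1* and *Jph3* had the patterns most like it over the 8 mice, with r of 0.94, 0.93 and 0.92. These are the top of a search over many genes in few libraries that share normalization, and no p is given.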

How the data were processed

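RNA-seq libraries from polyA-selected RNA were made from periventricular tissue of 8 mice. The authors ran bcl2fastq 2.20 and Salmon (version not given in the sources used here) against Gencode M29, and deposited 1 gene table of estimated counts that were not normalized and for every mouse a transcript table with estimated counts, TPM and lengths. Each column of the gene table carries an animal tag, which gave its mouse, and 0 columns remained unmatched. Names were taken from Gencode M21, which named 94.8% of the 54307 identifiers and matched 97.4% of transcripts with at least 99.16% of the reads. All reads of the 10 members were in matched transcripts.

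Estimated counts were rounded and tested with edgeR 4.0.16 in R 4.3.3 (TMM, filterByExpr, quasi-likelihood test without covariates, Benjamini-Hochberg over 17669 genes, with the study's threshold of an adjusted p under 0.1). Standard errors are the size of the log2 fold change over the square root of F. CPM use TMM library sizes, and log2 CPM a prior count of 2. Gene TPM is the sum over transcripts. Correlations used exact permutation of the 8 mice (40320 orders). The alternatives were DESeq2 1.42.0 size factors, DESeq2, other filters, sex, replicate number or cortical score as covariates, transcript lengths, females alone and each mouse left out. DESeq2 with sex with each mouse left out, sex with the cortical score, overlap within each sex, and correlations with genotype and sex taken out were added after seeing the data. The fits were first tested on simulated data with known changes and no effect of sex, where DESeq2 with sex made far more calls among unchanged genes than edgeR without sex.

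Members and lists were chosen with earlier results of these data known. The text names the 10 members, *Lrig1*, in each pathway list the genes with an unadjusted p under 0.05 and the one with the highest CPM (for the cascade list it is not reported here), and the 3 genes most like the members' mean. For cell lists the rule was the gene with the highest CPM, of which only *Foxj1* is printed, and the 3 markers with an unadjusted p under 0.05 were named after their values were seen. *Slc17a7*, *Neurod2* and *Emx1*, which the study lists as changed, were left out of the cortical score. *Spry3* could not be matched by name and was not analysed here.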

Additional observations from a re-analysis of the deposited data

Results flagged for a closer look

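*Dusp4* in 1 KO mouse stood apart from the rest of its group. It was not the highest of all mice, as WT replicate 4 had 7.81 CPM and the next WT mouse 5.07 CPM. KO replicate 4 had 6.83 CPM of *Dusp4*, while the next highest KO mouse had 4.65 CPM, a gap of 0.865 of the range of the 4 mice. Of 48 groups of 4 mice examined (the 10 members, *Lrig1*, total counts, 5 cell scores and 7 transcript shares in each genotype), this was the 1 group, or 2.08%, with such a gap, where chance gives about 1 in 20.

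For *Spry4*, WT and KO mice did not overlap within either sex, in opposite directions. In females both KO mice were above all 3 WT mice, with a KO mean of 122% of the WT mean. The lower female KO mouse, at 9.82 CPM, was just above the highest female WT mouse, at 9.75 CPM. In males both KO mice were below the only WT mouse, with a KO mean of 89.7% of its value. WT and KO were apart in opposite directions within the sexes in 6.63% of all genes tested. The difference between the sexes was not tested, and the males also had the higher cortical scores.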

How the results depend on the processing

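The number of the 10 genes called was 0 in edgeR under every alternative and 1, *Etv5*, in DESeq2 with sex (log2 fold change -0.43, adjusted p = 0.042) and in DESeq2 with transcript lengths and sex (-0.43, adjusted p = 0.0661). With 1 mouse left out of DESeq2 with sex it ranged from 0 to 2, *Etv1* and *Etv5* without KO replicate 4. Over all genes, 1 call in edgeR became 2 without a filter, with sex and with the cortical score, 0 with a minimum of 10 counts and with the replicate number as a block, 12 in DESeq2, 201 when DESeq2 had sex as a covariate, 215 with transcript lengths as well, 3 in females alone, and from 0 to 3 with 1 mouse left out. The replicate block changed no call among the 10 genes. Mice with the same number were not clearly alike, with correlations of their deviations between -0.22 and 0.27. Of the mice, 3 of 8 correlated best with their own number. Whether same-numbered mice shared a litter or batch was not tested. The median of the 10 genes was -0.19 with sex and the cortical score together and from -0.16 to -0.055 with 1 mouse left out. The log2 fold changes of *Spry2*, *Spred1*, *Spred2*, *Dusp6*, *Etv1* and *Etv5* were below 0 in all 19 other fits (those added later not counted), and 13 of 190 values reversed. *Dusp6* was only at -0.00025 in females alone. These fits share mice and are not independent, and how many of all genes keep their direction was not counted. *Spry1* was at -0.04 and *Spry4* at -0.031 with the cortical score, *Dusp4* at 0.11 and *Etv4* at 0.087 in females alone, and *Dusp4* at 0.076 with sex and the cortical score. With 1 mouse left out, *Spry1* ranged from -0.094 to 0.089, *Spry4* from -0.056 to 0.17, *Dusp4* from -0.25 to 0.19 and *Etv4* from -0.15 to 0.045. The cause was not tested. Groups of 4 mice with 1 WT male limit what can be seen: the narrowest 95% interval, that of *Spred2*, ran from 0.83 to 1.06 in fold and the widest, that of *Dusp4*, from 0.65 to 1.41.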
